A study of Rattus norvegicus with 6 samples.

Results

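The nuclear-encoded subunits of the mitochondrial respiratory chain and of the ATP synthase were examined in the skeletal muscle of newborn rats. Genes were chosen by symbol, as those beginning with Ndufa, Ndufb, Ndufc, Ndufs, Ndufv, Sdh, Uqcr, Cox4 to Cox8 or Atp5, and the Ndufaf and Sdhaf assembly factors were left out. Of the 26299 features of the array table, 50 were such genes, each with 1 row: 14 of complex I, 3 of complex II, 5 of complex III, 13 of complex IV and 15 of complex V. The annotation used (GRCr8) holds 110 coding genes that match these symbols, and the other genes, *Cox7a1*, *Cox6b1* and *Ndufa4* among them, have no matched row and were not analysed here.

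The study asked whether muscle gene expression differs with birth weight inside the normal range. RNA of 3 lower birth weight (LBW) pups was compared with that of 3 average birth weight (ABW) pups, the controls. All 6 were untreated male Wistar pups of 1 day of age. LBW stands for percentiles 5 to 25 of birth weight, and ABW for percentiles 25 to 75 in the sample labels but 50 to 75 in the protocol. No diet, drug or surgery separated the groups, so birth weight is the only factor in the labels, and the litter of each pup is not given. Soleus and gastrocnemius, a slow and a mixed hindlimb muscle, were pooled in each pup, and each RNA was hybridized to its own single-colour NimbleGen array. Values are log2 signals as deposited, and a difference is the LBW mean minus the ABW mean.

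The respiratory chain passes electrons from NADH (complex I) and succinate (complex II) through ubiquinone and complex III to cytochrome c, and complex IV hands them to oxygen. Complexes I, III and IV pump protons across the inner mitochondrial membrane, and complex V, the ATP synthase, uses their return to make ATP. A few subunits are encoded in the mitochondrial genome, but most are nuclear genes, transcribed with the help of NRF1, GABP and the oestrogen-related receptors and their PGC-1 coactivators. Muscle has its own isoforms of some complex IV subunits, which replace the ubiquitous (liver type) forms as muscle matures after birth.

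The 6 arrays had medians between 8.695 and 8.757 and values between 4.577 and 15.493, and the 3 pups per group limit the precision. The tissue carried the label's markers, as 9 of the 10 skeletal muscle markers with a row (of 22 listed) were among the brightest 25% of features, and their mean deviated from the ABW mean by 0, -0.04 and -0.04 in LBW 1, 2 and 3. Other tissues were less even. The mean of 11 bone markers (of 14 listed) lay 2.72, 0.45 and 3.56 above the ABW mean in LBW 1, 2 and 3, that of 5 neutrophil precursor markers (of 10) 2.51, 0.92 and 2.74 above it, and that of 12 white adipocyte markers (of 14) 0.4, 0.36 and 1.19 below it on the log2 scale. Among the ABW pups, the white adipocyte mean of ABW 1 was at -0.55 and those of ABW 2 and ABW 3 at 0.4 and 0.15. LBW 2 thus stood apart from the other LBW pups for bone, and across features its array correlated better with ABW 1 (r = 0.9925) than with LBW 1 (r = 0.9913) or LBW 3 (r = 0.9872). Background and detection calls were not part of the values, so that no marker can be called absent.

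Respiratory chain transcripts were nearly level between LBW and ABW muscle. Of the 50 genes, 26 were higher and 24 lower in LBW, and the median log2 difference was 0.014, beside -0.023 over all features. A single gene, *Cox6b2*, had an unadjusted p under 0.05 by limma, compared to 12.4% of all features. The same gene was the only one past the study's threshold of p under 0.05 with a change of at least 1.5-fold, which 4.27% of all features passed. With Benjamini-Hochberg adjustment over the whole table, 0 of the 50 genes and 0% of the features passed 0.05 by limma. The lowest adjusted p of a subunit gene was 0.276.

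The intervals around these differences were narrow. For 48 of the 50 genes (96%) the 95% interval of the fold change lay within 1.5-fold in either direction, compared to 66.6% of all features. Bright features have smaller errors, and 48 of the 50 genes were among the brightest 25%. Among features with a mean of at least 12, the share within 1.5-fold was 91%, and for the 47 genes that bright it was 97.9% (46 genes). At that brightness 6.12% of features and 0 of the 47 genes had an unadjusted p under 0.05 by limma. The study's threshold was passed by 11 of the 3725 features that bright and by 0 of the 47 genes. The 50 genes had a median level of 13.99, on arrays with values up to 15.493. Whether differences are compressed at such levels was not tested. The exceptions among the 50 were *Ndufv3*, whose interval ran from 0.817 to 1.56, and *Cox6b2*. The remaining intervals ran from 0.678 (*Cox8c*, a dim gene) to 1.46 (*Atp5f1c*). Without *Cox6b2*, the differences of the other 49 genes lay between -0.19 and 0.17, and the smallest unadjusted p by limma was 0.0775. In whole muscle, fewer cells of a type and less RNA per cell cannot be told apart, and this holds for each value here.

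**Figure D1:**
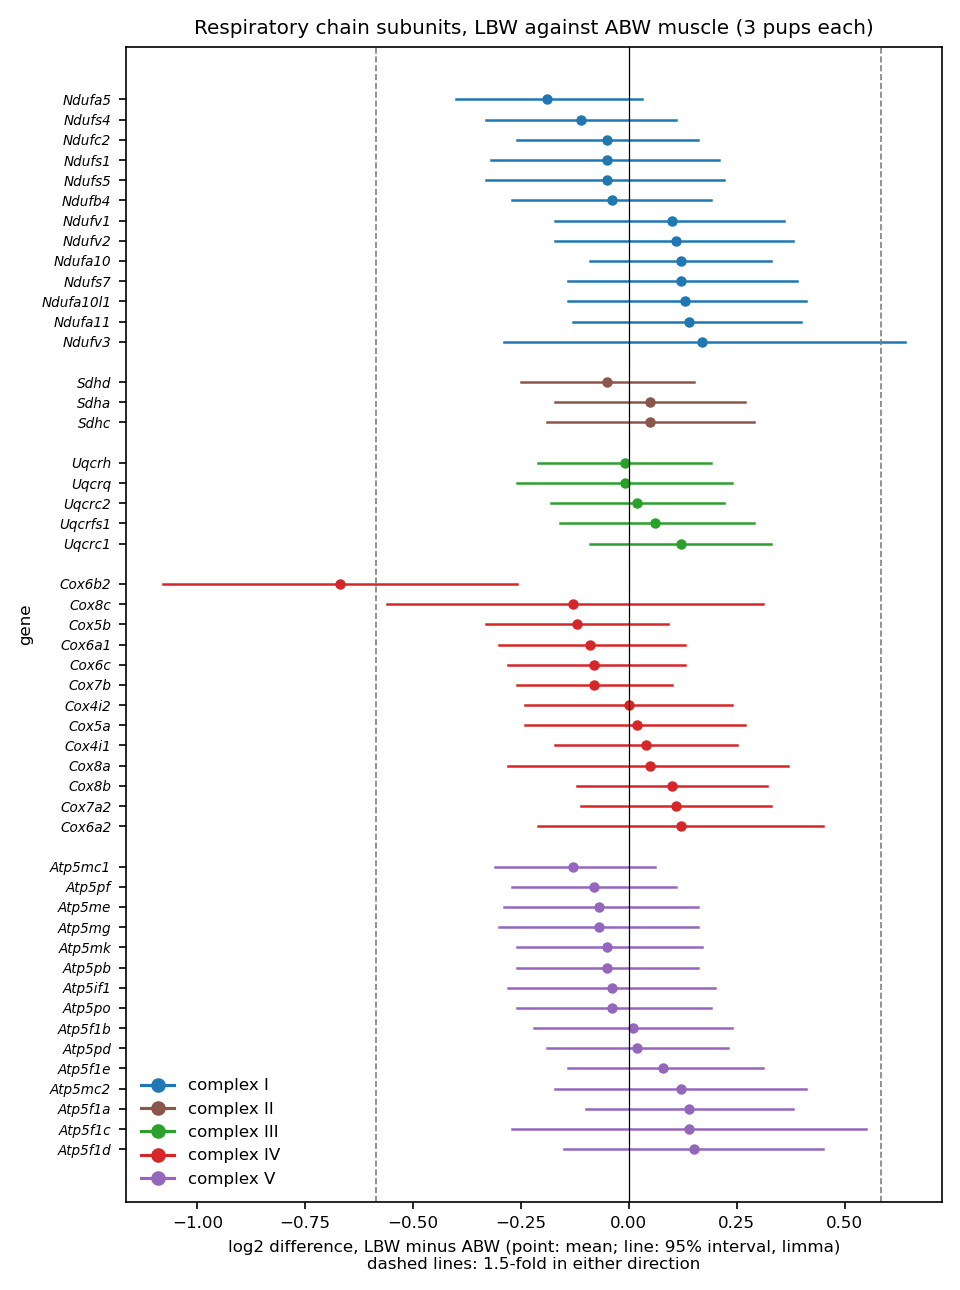
Log2 difference of LBW minus ABW muscle (x axis) for 49 of the 50 subunit genes (y axis), ordered within complexes I to V. Points are the mean difference of 3 pups against 3, lines the 95% interval by limma, and dashed lines mark 1.5-fold; 47 intervals lie between the dashed lines, and those of *Cox6b2* and *Ndufv3* cross one of them.

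The pups of a group differed from each other by more than the groups did. Taken against each gene's ABW mean, the 50 genes had median deviations of 0.078, 0.051 and -0.06 for LBW pups 1, 2 and 3, and of 0.061, 0.011 and -0.048 for ABW pups 1, 2 and 3. LBW 3 was above the ABW mean for 11 of the 50 genes, whereas LBW 1 was above it for 31 and LBW 2 for 33. In the ABW group the counts were 37, 26 and 14. LBW 3 and ABW 3 were the low pups of their groups by both measures, and ABW 1 was the high ABW pup, while LBW 1 was the high LBW pup by the median and LBW 2 by the count. The median over all features deviated by at most 0.036 in any pup. The bone marker means beside these medians were 2.72, 0.45 and 3.56 in LBW 1, 2 and 3, and their part in the order of the pups was not tested. The median SD of a gene was 0.097 among LBW and 0.083 among ABW pups, compared to 0.155 and 0.133 over all features, and to 0.115 and 0.088 over features with a mean of at least 12.

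**Figure D2:**
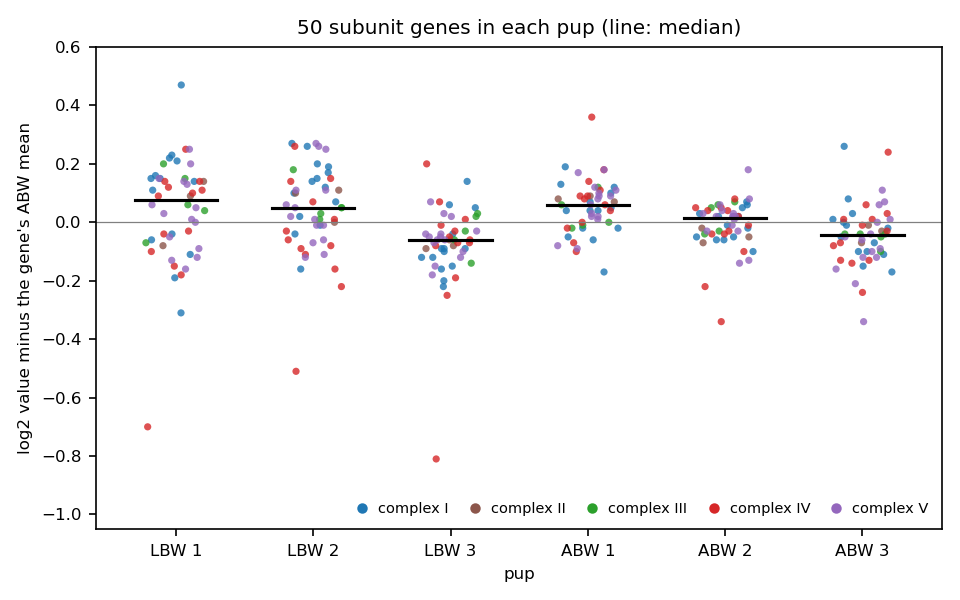
Log2 value of each of the 50 genes minus its ABW mean (y axis) in each pup (x axis), coloured by complex, with a line at the median of each pup. The medians run from -0.06 (LBW 3) to 0.078 (LBW 1), the groups overlap, and the lowest points of the LBW pups are *Cox6b2*.

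Complex I, which oxidizes NADH and reduces ubiquinone, had 8 genes higher and 6 lower in LBW, with a median difference of 0.1. This median was 0.031 without LBW 1, 0.047 without LBW 2 and 0.052 without ABW 3. None of the 14 had an unadjusted p under 0.05 by limma. The 5 genes of the NADH-oxidizing arm (*Ndufv1*, *Ndufv2*, *Ndufv3*, *Ndufs1* and *Ndufs4*) had a median of 0.095, and the 6 of the membrane arm 0.042. *Ndufv3*, a small accessory subunit beside the NADH site, had the highest difference of the complex. It was at 12.65, 12.38 and 12.02 in LBW 1, 2 and 3 and at 12.01, 12.08 and 12.44 in ABW 1, 2 and 3. The groups overlapped widely, and the difference of 0.17 (SE 0.19) was smaller than the SD of either group (0.32 and 0.23). *Ndufa11*, an accessory subunit of the membrane arm, was 0.14 (SE 0.11) higher, with LBW pups at 14.06 to 14.08 and ABW pups at 13.79 to 14.13.

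*Ndufa5*, an accessory subunit of the arm that faces the matrix, was the lowest gene of complex I. It was at 13.48, 13.63 and 13.69 in LBW 1, 2 and 3 and at 13.77, 13.78 and 13.82 in the ABW pups. The groups did not overlap, with LBW on the low side, and the log2 difference was -0.19 (SE 0.09, adjusted p = 0.457 by limma). As a fold change this was 0.878, with a 95% interval of 0.756 to 1.02. *Ndufs4*, an accessory subunit needed for the stability of the complex, was 0.11 lower on the log2 scale (SE 0.09), with 12.75 to 12.94 in LBW and 12.89 to 13.02 in ABW pups. *Ndufa10*, a membrane arm subunit of the nucleoside kinase family, was at 13.52, 13.51 and 13.43 in LBW and 13.41, 13.42 and 13.27 in ABW pups. It was the sole gene of the 50 with every LBW value above every ABW value, by 0.01 between the nearest pups, and its difference was 0.12 (SE 0.09, adjusted p = 0.623 by limma). Its close relative *Ndufa10l1*, with which it may share signal, differed by 0.13 (SE 0.11) and overlapped.

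In complexes II and III no gene differed by more than 0.12. In complex II, *Sdha*, the flavoprotein that oxidizes succinate, differed by 0.05 (SE 0.09), and the membrane anchors *Sdhc* and *Sdhd* by 0.05 (SE 0.10) and -0.05 (SE 0.08), with overlap in each. In complex III the 5 genes had a median of 0.021. *Uqcrc1*, a core protein, was the highest at 0.12 (SE 0.09), with LBW pups at 12.08 to 12.24 and ABW pups at 12.02 to 12.12. *Uqcrfs1*, the Rieske iron-sulphur protein, differed by 0.06 (SE 0.09). *Uqcrh*, the hinge protein beside cytochrome c1, and *Uqcrq*, a small membrane subunit, both differed by -0.01 (SE 0.08 and 0.10), so that the 95% interval of *Uqcrh* was 0.865 to 1.14-fold.

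In complex IV, cytochrome c oxidase, 6 genes were higher and 7 lower, with a median of -0.003. *Cox6b2*, known as the testis form of a subunit on the cytochrome c side, was the single gene of the 50 with an unadjusted p under 0.05. It was at 9.59, 9.78 and 9.48 in LBW 1, 2 and 3 and at 10.38, 9.95 and 10.53 in ABW 1, 2 and 3. The groups did not overlap, although LBW 2 and ABW 2 were only 0.17 apart. The LBW mean was 9.61 ± 0.15 and the ABW mean 10.29 ± 0.30 (SD, n = 3 each). The log2 difference was -0.67 (SE 0.17, adjusted p = 0.276 by limma), which corresponds to a fold change of 0.628 with a 95% interval of 0.473 to 0.833, and the exact permutation test gave p = 0.1, the smallest that 3 pups against 3 allow. Its signal was at percentile 63 of all features, and whether muscle cells or other cells of the sample carry it was not tested. With each pup left out in turn, its p by limma stayed under 0.05, and without ABW 3 the difference was -0.55, short of 1.5-fold. Its usual somatic counterpart *Cox6b1* has no matched row and was not analysed here.

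For the muscle isoforms *Cox6a2* and *Cox8b* of complex IV, the difference from the ubiquitous form overlapped between LBW and ABW pups. *Cox6a2*, the heart and skeletal muscle form of subunit 6A, was at 14.37, 14.53 and 14.26 in LBW and at 14.45, 14.32 and 14.03 in ABW pups, a difference of 0.12 (SE 0.14) with a 95% interval of 0.865 to 1.36-fold. *Cox6a1*, the ubiquitous form, was at 14.55, 14.64 and 14.65 in LBW and at 14.79, 14.60 and 14.71 in ABW pups, a difference of -0.09 (SE 0.09, 0.812 to 1.09-fold). The muscle form moved slightly up and the ubiquitous form slightly down, each within overlapping values. *Cox6a2* minus *Cox6a1* within each pup was -0.17, -0.12 and -0.39 in LBW and -0.34, -0.28 and -0.68 in ABW pups. The 2 groups' means were -0.23 ± 0.15 and -0.43 ± 0.22 (SD, n = 3), and the change of 0.21 gave p = 0.3 by the exact permutation test (adjusted p = 0.667 over the 5 isoform pairs tested). Only LBW 3, at -0.39, lay within the ABW values. With single pups left out the change ran from 0.082 (without ABW 3) to 0.288 (without LBW 3).

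*Cox8b*, the heart and skeletal muscle form of subunit 8, was at 14.15, 14.05 and 14.24 in LBW and at 14.08, 14.08 and 13.97 in ABW pups (0.10, SE 0.09, 0.922 to 1.25-fold). *Cox8a*, the ubiquitous form, was at 14.34, 14.16 and 13.90 and at 14.17, 14.13 and 13.95 (0.05, SE 0.14, 0.824 to 1.30-fold). LBW 3 was the highest LBW pup for *Cox8b* and the lowest for *Cox8a*. The difference of *Cox8b* minus *Cox8a* was -0.19, -0.11 and 0.34 in LBW and -0.09, -0.05 and 0.02 in ABW pups, a change of 0.06 (exact permutation p = 1, adjusted p = 1), which turned to -0.11 without LBW 3. *Cox7a2*, the ubiquitous form of subunit 7A, was 0.11 higher (SE 0.09), and its muscle counterpart *Cox7a1* was not analysed here.

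Other tissue forms were also level. *Cox4i2*, the lung form of subunit 4, known for its response to low oxygen, was at 11.62, 11.40 and 11.41 in LBW and at 11.41, 11.56 and 11.47 in ABW pups, a difference of 0 (SE 0.10). *Cox4i1*, the general form, differed by 0.04 (SE 0.09), and the change of *Cox4i2* minus *Cox4i1* was -0.04 (exact permutation p = 0.8, adjusted p = 1). *Cox8c*, a testis form, differed by -0.13 (SE 0.18), and *Cox8c* minus *Cox8a* by -0.18 (exact permutation p = 0.4, adjusted p = 0.667). *Cox7b*, a small membrane subunit, lay at 14.24 to 14.27 in LBW and 14.32 to 14.35 in ABW pups without overlap. The SD was 0.02 in both groups. Its difference was -0.08 with an SE of 0.08 (adjusted p = 0.702 by limma), as limma moderates so small a spread with that of the other features.

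**Figure D3:**
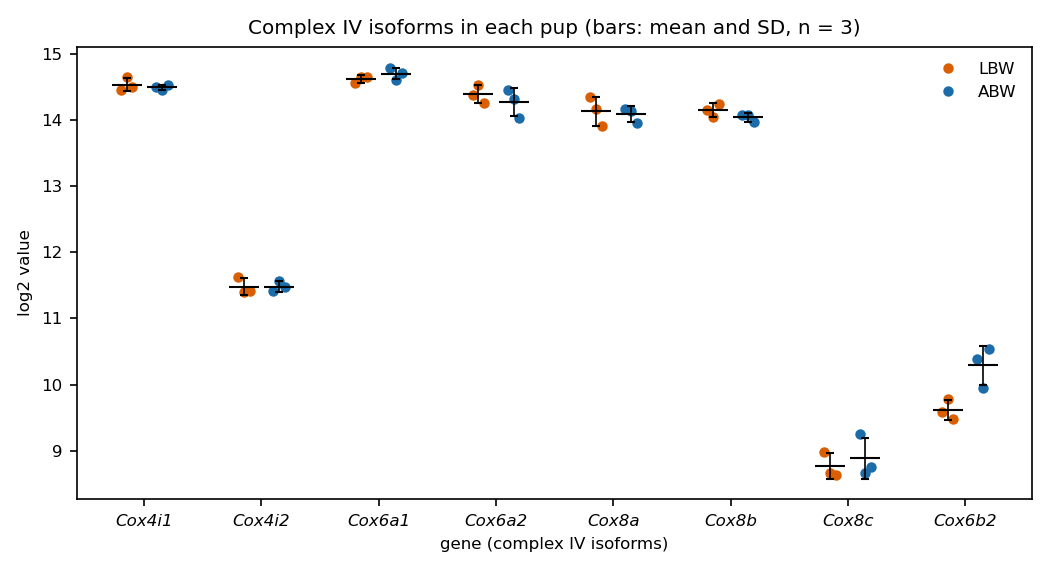
Log2 values (y axis) of complex IV isoforms (x axis) in each LBW and ABW pup, with mean and SD bars (n = 3). LBW and ABW values overlap for each gene except *Cox6b2*, and heights of different genes come from different probes and are not compared.

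Sequences of the promoters of 44 of the 50 genes were found in RefSeq (GRCr8), and the 250 bases before the annotated start were read on both strands for 8 short motifs. Together these genes are rich in CpG, with a median of 17 (4 to 33) in the window. The median was 11 over the 7841 promoters found for the 9627 named genes on the array, the 44 included. The NRF1 core TGCGCA was found in 13 of the 44 (29.5%) and in 9.0% of those 7841 promoters, and the ETS core of GABP, CCGGAAG, in 13 (29.5%) and in 10.5%. The GC box GGGCGG was found in 40.9% and 43.6%, and TATAAA in 6.8% and 13.3%. The lowest CpG counts of the 44 were those of *Cox8b* (4), of *Cox6a2* and *Cox7b* (5 each) and of *Ndufs4* and *Cox8c* (6 each), so that muscle forms and other genes shared the low end. *Cox6a2* and *Cox8b* both hold the E-box CAGCTG, a motif read by the MyoD family, which was found in 15.9% of the 44 and 12.1% of the array promoters. The E-box was not particular to muscle forms, as *Cox4i1*, *Cox8c*, *Ndufa5*, *Atp5f1e* and *Atp5po* hold it too. The windows of *Cox8b* and its ubiquitous counterpart *Cox8a*, of *Cox6a2*, and of *Cox6b2* as the gene with the largest difference, are given from 5′ to 3′ of the gene, with matches in capitals. *Cox8b* has 4 CpG, a pair of E-boxes, a GC box and a TATA box, *Cox8a* has 15 CpG and a pair of GABP cores, *Cox6a2* has 5 CpG and an E-box, and *Cox6b2* has 8 CpG and no match. A match is a description of the letters and not of binding.
Cox8b, chr1:205408274-205408523, - strand: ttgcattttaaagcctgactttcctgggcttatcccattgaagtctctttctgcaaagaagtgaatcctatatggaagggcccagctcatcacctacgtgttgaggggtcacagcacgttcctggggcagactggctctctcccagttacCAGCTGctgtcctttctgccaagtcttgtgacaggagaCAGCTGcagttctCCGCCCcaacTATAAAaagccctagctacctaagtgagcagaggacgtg
Cox8a, chr1:213833624-213833873, - strand: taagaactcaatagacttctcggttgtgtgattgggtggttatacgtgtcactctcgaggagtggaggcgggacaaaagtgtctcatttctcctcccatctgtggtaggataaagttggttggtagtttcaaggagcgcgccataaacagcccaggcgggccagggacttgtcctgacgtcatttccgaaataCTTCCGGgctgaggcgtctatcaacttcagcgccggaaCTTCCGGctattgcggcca
Cox6a2, chr1:192219717-192219966, - strand: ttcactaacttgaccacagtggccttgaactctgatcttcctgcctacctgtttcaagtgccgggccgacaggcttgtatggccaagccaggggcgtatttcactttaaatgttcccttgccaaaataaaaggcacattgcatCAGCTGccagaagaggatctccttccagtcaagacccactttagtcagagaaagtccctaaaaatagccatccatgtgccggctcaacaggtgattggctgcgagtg
Cox6b2, chr1:78122621-78122870, + strand: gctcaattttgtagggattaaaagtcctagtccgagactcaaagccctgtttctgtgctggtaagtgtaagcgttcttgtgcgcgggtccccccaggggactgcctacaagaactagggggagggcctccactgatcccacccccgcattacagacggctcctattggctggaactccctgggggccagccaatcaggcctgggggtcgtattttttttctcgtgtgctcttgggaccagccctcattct

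Complex V had 7 genes higher and 8 lower, with a median of -0.036, which turned to 0.01 without LBW 3. In the catalytic head, which makes ATP, the 5 genes lay on the same side. *Atp5f1a*, *Atp5f1b*, *Atp5f1c*, *Atp5f1d* and *Atp5f1e* were 0.01 to 0.15 higher in LBW (median 0.137), and none had an unadjusted p under 0.05 (smallest adjusted p = 0.626 by limma). *Atp5f1d*, the delta subunit of the central stalk, was at 13.31, 13.17 and 13.13 in LBW and at 13.24, 13.09 and 12.85 in ABW pups (0.15, SE 0.12). *Atp5f1c*, the gamma subunit that turns in the head, was at 13.99, 14.06 and 13.75 and at 13.96, 13.97 and 13.45 (0.14, SE 0.17). In both genes ABW 3 was the low pup, and without ABW 3 the median of the head was 0.022, with 4 of 5 genes higher. The sign of *Atp5f1b*, the beta subunit, rested on 0.01, and 4 of 5 were higher when arrays were centred on their medians.

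The other genes of complex V lay slightly on the lower side, except *Atp5mc2* (0.12) and *Atp5pd* (0.02). The peripheral stalk, which holds the head still, had a median of -0.044 over *Atp5pb*, *Atp5pd*, *Atp5pf* and *Atp5po*. *Atp5pf*, coupling factor 6, was at 13.69, 13.74 and 13.77 in LBW and at 13.83, 13.83 and 13.77 in ABW pups, and its difference was -0.08 (SE 0.08). LBW 3 and ABW 3 were equal to 2 decimals. The membrane subunits *Atp5me*, *Atp5mg* and *Atp5mk* were each on the lower side, at -0.07, -0.07 and -0.05, and the inhibitor *Atp5if1*, which stops the enzyme from running in reverse, by -0.04 (SE 0.10). *Atp5mc1* encodes the c subunit of the proton-driven ring, and *Atp5mc2* encodes the same mature protein with another import sequence. *Atp5mc1* was at 14.02, 14.06 and 14.06 in LBW and at 14.19, 14.15 and 14.18 in ABW pups, without overlap (-0.13, SE 0.08, adjusted p = 0.547 by limma, 0.807 to 1.04-fold). *Atp5mc2* was at 14.03, 14.16 and 13.85 and at 13.99, 13.96 and 13.74 (0.12, SE 0.12), in the opposite direction. The change of *Atp5mc1* minus *Atp5mc2* was -0.25 (exact permutation p = 0.3, adjusted p = 0.667).

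In all, 6 of the 50 genes had groups that did not overlap. Higher in LBW was 1 (*Ndufa10*), compared to 7.27% of all features, and lower were 5 (*Ndufa5*, *Cox6b2*, *Cox7b*, *Atp5mc1* and *Atp5pf*), compared to 10.1% of all features. The share of 12% stood beside 17.4% of all features. The counts by direction depended on single pups and on the scaling, as fewer pups let more genes count as not overlapping. Without LBW 3, 11 were higher and 6 lower, where 31.9% of all features did not overlap. Without ABW 1 the counts were 9 and 6, beside 32.4% of all features. With arrays centred on their medians they were 0 and 4, beside 17.6% of all features, and *Ndufa10* overlapped. *Ndufa10* and *Cox7b* are named here after their values were seen.

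The genes that build and feed the chain were mostly level. Of the assembly factors, 10 of 44 listed had a row, their median was 0.01, and 0 had a p under 0.05 by limma. The mitochondrial carriers and import genes (23 of 26) had a median of 0.028, 17 were higher, and 0 passed. In the tricarboxylic acid cycle list (15 of 19, median 0.094) 1 gene passed (6.67%, beside 12.4% of all features). This was *Pdha1*, the catalytic subunit of pyruvate dehydrogenase, at 13.50, 13.63 and 13.50 in LBW and at 13.34, 13.31 and 13.34 in ABW pups (0.21, SE 0.08, adjusted p = 0.377 by limma). Among the electron carriers and entry enzymes (16 of 18) 2 passed (12.5%), which is the share of all features (12.4%). *Coq8a*, needed for ubiquinone synthesis, was at 12.13, 12.18 and 11.96 in LBW and at 11.93, 11.67 and 11.59 in ABW pups (0.36, SE 0.12, adjusted p = 0.339 by limma). *Pdss2*, which helps make the ubiquinone side chain, was 0.26 higher (SE 0.08, adjusted p = 0.322 by limma). These 3 calls were each lost with several pups left out in turn, in fits that have fewer pups. *Pdha1* stayed at an unadjusted p under 0.05 without LBW 3 and lost it without any other pup. It also lost it with centring, with the dimmest 25% of rows left out and with the replicate block. *Coq8a* lost it without LBW 1, LBW 2, ABW 2 or ABW 3, and *Pdss2* without LBW 1, LBW 2 or ABW 1 and with an intensity trend. With single pups left out, the log2 differences stayed above 0. They ran from 0.169 to 0.235 for *Pdha1*, from 0.287 to 0.457 for *Coq8a* and from 0.22 to 0.281 for *Pdss2*. *Cycs*, cytochrome c, differed by 0.04 (adjusted p = 0.912 by limma), and *Cyc1* had no matched row.

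Several regulators of mitochondrial biogenesis differed between LBW and ABW muscle at the unadjusted level. Of the 16 with a row (of 25 listed), 7 (43.8%) had an unadjusted p under 0.05 by limma, beside 12.4% of all features. Of these, 5 were higher and 2 lower in LBW. None passed after adjustment, and the median of the 16 was 0.093, with 8 genes on each side of 0. *Ppara*, a nuclear receptor that drives fatty acid oxidation, was the only one past the study's threshold. It was at 10.34, 10.24 and 9.85 in LBW 1, 2 and 3 and at 9.74, 9.20 and 9.03 in ABW 1, 2 and 3, so that the nearest pups, LBW 3 and ABW 1, were 0.11 apart. The difference was 0.82 (SE 0.22, adjusted p = 0.286 by limma), and its p stayed under 0.05 with any pup left out. *Ppara* is also listed as a brown adipocyte marker. The mean of the 8 brown adipocyte markers with a row, *Ppara* included, deviated by 0.26, 0.22 and -0.16 in LBW and by 0.2, -0.09 and -0.1 in ABW pups, and the part of such cells in the difference was not tested.

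*Ppargc1b*, the coactivator PGC-1 beta, was at 11.21, 11.33 and 11.21 in LBW and at 11.04, 10.81 and 10.49 in ABW pups. The groups did not overlap, and the SD was 0.07 among LBW and 0.27 among ABW pups. Its difference was 0.47 (SE 0.15, adjusted p = 0.315 by limma), and without LBW 2 it no longer had an unadjusted p under 0.05. *Ppargc1a*, the better known PGC-1 alpha, was at 10.02, 10.15 and 9.99 and at 10.28, 9.94 and 9.98, a difference of -0.01. *Gabpb1*, the partner subunit of GABP, was 0.34 higher (SE 0.14, adjusted p = 0.391 by limma). Its nearest pups were LBW 3 at 9.93 and ABW 3 at 9.9. It kept an unadjusted p under 0.05 without LBW 3 and lost it without any other pup. *Yy1*, a general transcription factor, was at 10.38, 10.37 and 10.61 in LBW and at 10.68, 10.75 and 10.88 in ABW pups (-0.32, SE 0.11, adjusted p = 0.334 by limma). *Yy1* lost an unadjusted p under 0.05 without LBW 1, LBW 2, ABW 2 or ABW 3. The other 3 genes at an unadjusted p under 0.05 differed by 0.24, 0.23 and -0.31. *Esrra* differed by 0.23 (adjusted p = 0.721 by limma) and *Tfam*, which packs mitochondrial DNA, by -0.07 (adjusted p = 0.858 by limma), while *Nrf1* and *Gabpa* had no matched row. The count of 7 fell with any pup left out. It was 2 without LBW 1, 1 without LBW 2, 5 without LBW 3, 4 without ABW 1, and 3 without ABW 2 or without ABW 3. Over these fits, 7.7% to 13.7% of all features had such a p.

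**Figure D4:**
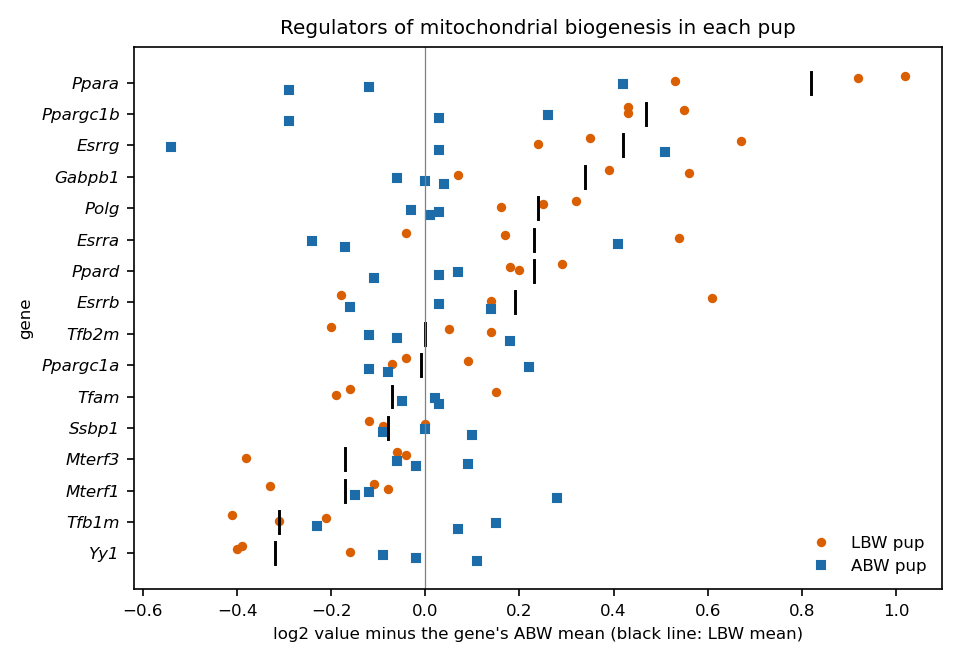
Log2 value minus the gene's ABW mean (x axis) of the 16 regulators with a row (y axis), for each LBW (circles) and ABW (squares) pup, with black lines at the LBW mean. *Ppara* and *Ppargc1b* lie farthest to the right, each with the 3 LBW pups above the 3 ABW pups, and *Ppargc1a* and *Tfam* lie around 0.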

How the data were processed

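The RNA of 6 muscle samples, 3 LBW and 3 ABW, was hybridized to single-colour (Cy3) NimbleGen rat arrays. The authors deposited 1 log2 value for each of 26419 rows and pup, made with in-house R scripts and Bioconductor. The submitters' processing notes name RMA, with no version or role. The normalization is thus already in the values, and no detection call came with them. The array design follows an older build than the RefSeq table (GRCr8), so that no array coordinates are given.

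RefSeq accessions gave a symbol to 9747 rows (36.9%). Rows of a symbol were averaged, which left 26299 features. Each was tested with limma 3.58.1 (lmFit and eBayes) in R 4.3.3, with no further normalization or filter, 2-sided, and p-values were adjusted over all features by Benjamini-Hochberg. Isoform differences were tested by exact permutation of the 6 pups. The fit was tested on simulated data. Of the 50 genes, 27 have a named pseudogene in the annotation, whose transcripts could share signal. The p-values weigh the group difference against the spread between these pups and treat the pups as independent. Nothing says that they came from separate litters, so litter and birth weight cannot be told apart, and the p-values may be too small.

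Genes named are the isoform pairs, genes past p under 0.05 or the study's threshold, the 2 highest and 2 lowest of each complex, at most 4 genes per list of those at p under 0.05, and *Ppargc1a*, *Nrf1*, *Gabpa*, *Esrra*, *Tfam*, *Cyc1* and *Cycs*; others are named as a part of their subcomplex or where stated. The genes and lists were chosen with earlier results of these data known. The pair *Cox7a1* and *Cox7a2* could not be tested. Marker lists of cartilage, slow muscle, erythroid cells, macrophages, endothelium and cardiac muscle were also read. Results were recomputed with each pup left out, the replicate number as a block, quantile normalization, centring, dim rows left out, rows kept single, array weights, a robust variance, an intensity trend and the methods' test. The methods' test was a 2-sided Student's t-test, which the paper lists beside ANOVA for its data in general. The paper names no test for the arrays. The labels do not say whether the replicate numbers pair the pups. Of the 50 genes, 1 is counted but not reported singly here.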

Additional observations from a re-analysis of the deposited data

How the results depend on the processing

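The count of regulators and that of genes within 1.5-fold were followed through the alternatives after seeing the data. *Cox6b2* kept an unadjusted p under 0.05 under every alternative run (0.000983 to 0.0261, by limma or the methods' test), with log2 differences from -0.841 to -0.55. The number of subunit genes past the study's threshold was 1 under each alternative, but ranged from 0 (without ABW 3) to 1 with single pups left out, and 0 passed after adjustment in any. At an unadjusted p under 0.05 there were 2 with an intensity trend (12.4% of all features) and 2 with array weights (15%), where *Ndufa5* was added. By the methods' test there were 4 (9.51% of all features), where *Ndufa5*, *Cox7b* and *Atp5mc1* were added because this test uses each gene's own spread. The genes without overlap numbered 5 with quantile normalization (17.3% of all features) and 4 with centring (17.6%). They numbered 8 to 17 with single pups left out, since fewer pups overlap less (23.9% to 32.4% of all features). Between 46 and 48 genes stayed within 1.5-fold in every alternative, beside 56.7% to 67.6% of all features. The median of the 50 genes ranged from -0.013 to 0.054. With single pups left out, the median of complex II ranged from 0.006 to 0.101, that of complex III from -0.002 to 0.058 and that of complex IV from -0.057 to 0.043. Quantile normalization put 29 genes higher and 21 lower, and centring 25 and 25. The change of *Cox8b* minus *Cox8a* ranged from -0.11 (without LBW 3) to 0.157 (without LBW 1).

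Regulators at an unadjusted p under 0.05 numbered 7 with rows kept single and 6 with quantile normalization, a robust variance or array weights. With centring or the methods' test they numbered 5. There were 4 without the dimmest 25% of rows (15 tested), 4 with an intensity trend and 3 with the replicate block. Over these alternatives, 9.51% (the methods' test) to 15% (array weights) of all features had such a p. With single pups left out the count ran from 1 (without LBW 2) to 5 (without LBW 3). The cause was not tested. Over all features, same-numbered pups deviated together only weakly (correlations of 0.087, 0.104 and 0.055). For the 50 genes, the median deviations of pups 1, 2 and 3 fell in both groups. They were 0.078, 0.051 and -0.06 in LBW and 0.061, 0.011 and -0.048 in ABW, and whether this follows the replicate number was not tested. With the replicate block, 1 subunit gene, *Cox6b2*, passed the study's threshold and 48 stayed within 1.5-fold. The isoform pair *Cox7a1* and *Cox7a2* was not run, as *Cox7a1* has no matched row. How far dim signals such as *Cox8c* lie above background is unknown, and 3 pups per group limit the precision.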

Other observations

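Among the other marker lists, those of slow muscle fibres (8 of 9 listed with a row, 6 higher in LBW, median 0.184) and of cardiac muscle (7 of 10, 7 higher, median 0.15) lay mostly on the higher side in LBW muscle. At an unadjusted p under 0.05 by limma, 0 of the slow fibre genes and 2 of the cardiac genes (28.6%) passed, beside 12.4% of all features. The slow fibre mean deviated from the ABW mean by 0, 0.15 and 0.21 in LBW 1, 2 and 3 and by 0.11, -0.1 and -0.01 in the ABW pups, so that the groups overlapped. The cardiac mean deviated by 0.23, 0.32 and 0.14 in the LBW pups and by 0.12, -0.02 and -0.09 in the ABW pups, without overlap. The levels of the cardiac genes ran from percentile 6.4 to 100 of all features, and which cells carry them was not tested. Cartilage markers (6 of 12) deviated by 1.19, -0.12 and 1.98 in the LBW pups. Erythroid (7 of 13), macrophage (10 of 12) and endothelial markers (6 of 10) had medians of -0.087, -0.136 and -0.033, with 0, 0 and 1 gene at an unadjusted p under 0.05 by limma.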
